A study of Arabidopsis thaliana with 12 samples.

Results

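Transposable elements that sit inside annotated genes were described here through the small RNA that maps to them in Arabidopsis thaliana inflorescences. The deposited table lists 152484 genomic bins of 100 bp. A bin was kept when its annotation named both a transposable element and a gene on chromosomes 1 to 5, with no transposable element gene and no mature miRNA in it, and 6 further bins were left out by name. The choice gave 3409 bins, 2.24% of all, which lie in 1128 host genes, touch 1550 annotated elements and form 1601 runs of adjacent bins (820 of them of 1 bin, the longest of 26). Chromosomes 1 to 5 held 840, 608, 672, 576 and 713 of the bins, and 727 of them also lay in the promoter of a gene. Where insertions are counted below, these bins are counted, so a long element counts once per 100 bp. Apart from the 6 bins left out by name, the choice read only the annotation, but it was made with earlier results of these data known.

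Inflorescence small RNA was sequenced from the Col-0 wild type and from 3 single mutants in that ecotype, with 3 biological replicates per genotype. The mutants carry the heso1-1, urt1-1 or ntp4-1 allele, and Col-0 carries none of them. All plants grew untreated at 22 °C in days of 16 h light and 8 h dark. RNA was taken up in TRIzol, and a NEBNext small RNA kit gave the libraries. Small RNA in a bin says nothing of the mRNA of HESO1, URT1 or NTP4, so the genotype labels were not checked here. The labels call the replicates biological, and p-values measure only the spread between such samples. In whole inflorescences, fewer cells of a type and less small RNA per cell cannot be told apart.

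Plants keep transposable elements silent through RNA-directed DNA methylation. RNA polymerase IV and RDR2 make double-stranded RNA from an element, DCL3 cuts it into small interfering RNAs (siRNAs), and ARGONAUTE4 clade proteins use these to bring DNA methylation back to the same sequence. An element inside a gene is held silent within a transcribed unit, and such elements can set splicing, transcript ends or expression of their host. HESO1 and URT1 are uridylyltransferases, which extend RNA with uridine at the 3' end, among them small RNAs that lack the protecting methyl group at that end. NTP4 belongs to the same nucleotidyltransferase family, and the series title concerns its part in the modification of miRNA duplexes.

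The bins on which the results below turn are shown first, as the TAIR10.1 sequence from RefSeq, 5' to 3' on the strand of the host gene, with annotated exon bases of the host in capitals. The most abundant of these bins lies in AT4G27930, a gene identifier not found in the reference annotation used here, so the plus strand of chr4:13902701-13902800 is shown without exon marks:
AT4G27930: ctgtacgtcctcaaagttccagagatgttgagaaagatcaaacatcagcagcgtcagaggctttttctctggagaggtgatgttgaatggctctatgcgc
The edge of the protein kinase gene AT2G16620 held the most abundant bin of any kinase host, at chr2:7205301-7205400, minus strand:
AT2G16620: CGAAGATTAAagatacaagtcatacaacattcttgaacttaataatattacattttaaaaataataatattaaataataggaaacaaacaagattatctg
For tRNA genes that share a bin with an element, 3 of the bins called in ntp4-1 with the replicate block and TMM scaling are shown (AT1G76000, tRNA-Asp, chr1:28527701-28527800, plus strand; AT1G75970, tRNA-Glu, chr1:28520001-28520100, minus strand; AT3G26747, tRNA-Val, chr3:9839201-9839300, plus strand):
AT1G76000: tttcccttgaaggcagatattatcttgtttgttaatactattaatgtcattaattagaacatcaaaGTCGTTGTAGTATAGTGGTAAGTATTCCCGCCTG
AT1G75970: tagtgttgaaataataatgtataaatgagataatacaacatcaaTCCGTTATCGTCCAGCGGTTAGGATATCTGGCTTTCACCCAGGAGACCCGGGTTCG
AT3G26747: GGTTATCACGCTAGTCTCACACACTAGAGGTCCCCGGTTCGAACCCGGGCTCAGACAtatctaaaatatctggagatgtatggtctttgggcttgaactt
Sites in or beside other hosts with low values in a mutant were the serpin pseudogene AT1G64035 (chr1:23755401-23755500, minus strand), an intron of the potassium transporter gene HAK5 (AT4G13420, chr4:7800601-7800700, minus strand) and the coding exon of AT5G21125 (chr5:7185301-7185400, minus strand):
AT1G64035: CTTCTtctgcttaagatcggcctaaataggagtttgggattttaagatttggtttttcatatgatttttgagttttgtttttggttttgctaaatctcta
HAK5: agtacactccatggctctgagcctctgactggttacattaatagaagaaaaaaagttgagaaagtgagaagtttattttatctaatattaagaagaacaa
AT5G21125: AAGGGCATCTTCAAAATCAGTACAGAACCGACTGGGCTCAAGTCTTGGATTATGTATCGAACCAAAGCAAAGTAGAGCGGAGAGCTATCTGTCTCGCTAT
A coding exon of the pentatricopeptide repeat gene AT1G28000 (chr1:9756801-9756900, minus strand) had higher values in the uridylyltransferase mutants, and an intron of the disease resistance gene AT1G58602 (RPP7, chr1:21758401-21758500, plus strand) held the most abundant of that gene's many transposon bins:
AT1G28000: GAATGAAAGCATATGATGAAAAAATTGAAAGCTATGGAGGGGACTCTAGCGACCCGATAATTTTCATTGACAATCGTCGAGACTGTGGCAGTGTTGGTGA
AT1G58602: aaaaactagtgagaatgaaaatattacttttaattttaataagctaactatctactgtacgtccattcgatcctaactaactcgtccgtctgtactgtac
In the tRNA bins the capitals are parts of tRNA genes, of which the genome holds near-identical copies. Of the 24-base words that start in them, 56.0%, 66.0% and 60.0% occur once in the genome for AT1G76000, AT1G75970 and AT3G26747. The bins of AT4G27930, AT1G64035, HAK5, AT5G21125 and AT1G28000 consist of words that occur once (100%).

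Values are RPM, the reads of a bin scaled by the authors to a fixed total of reads per library. The listed bins hold only 28.7% (ntp4-1 replicate 1) to 67.5% (Col-0 replicate 2) of each library. In the 11 libraries whose values gave whole reads, implied totals run from 2761330 (heso1-1 replicate 3) to 11191516 reads, and the reads in transposon bins of genes from 36521 (heso1-1 replicate 3) to 181123. The 12 libraries fell into 2 sets that no label names. The first set holds Col-0 replicate 1, heso1-1 replicate 1, urt1-1 replicates 1 and 3 and ntp4-1 replicate 1, and the second set the other 7. The median correlation of log2 values over all bins was 0.854 within a set and 0.749 between sets (0.843 and 0.746 over the transposon bins in genes). Counts are therefore also given with the library set as a term in the fit, a choice made after seeing the data. Chloroplast bins took 5.96% to 6.47% of the listed RPM in Col-0, 4.29% to 7.64% in heso1-1, 5.48% to 11.4% in urt1-1 and 12.1% to 13.5% in ntp4-1. Of the pollen miRNAs, miR845 summed to a median of 1670 RPM in Col-0, 919 in heso1-1, 1994 in urt1-1 and 628 in ntp4-1. Its ranges in heso1-1 (119 to 2426) and urt1-1 (340 to 2067) overlapped Col-0 (1485 to 2854), and ntp4-1 (288 to 853) lay below. The other, miR2939, had low medians of 0.274, 3.66, 5.16 and 0.608 RPM. Its ntp4-1 range (0.263 to 1.28) overlapped Col-0 (0.0899 to 0.804), while heso1-1 and urt1-1 lay above. The flower miRNA miR172 had medians of 248, 539, 67.8 and 449 RPM, with all groups overlapping. The part of tissue make-up in the differences below was not tested.

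In Col-0 most insertions gave little small RNA and a few gave very much. The median bin had 0.659 RPM as the mean of the 3 libraries (quartiles 0.292 and 2.01). Only 225 bins, in 157 host genes, reached 10 RPM, and 19 reached 100 RPM, while 20 bins were listed at 0 in all 3 Col-0 libraries. The 10 highest bins held 36.8% of the summed RPM of these insertions, and the 100 highest held 65.2%. The spread among Col-0 libraries was moderate in the well-covered bins, with a median coefficient of variation of 29.3% over those of at least 10 RPM. Transposon bins in promoters had a median of 0.567 RPM, those away from genes 0.569 RPM, and gene bins without an element 0.382 RPM. Promoter bins without an element had a higher median than the insertions, at 0.736 RPM. At least 10 RPM were reached by 6.60% of the transposon bins in genes, 3.87% of those in promoters, 4.08% of those away from genes and 5.66% of gene bins without an element. The share was 9.72% for promoter bins without an element.

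Introns held more of the transposon bins than any other place. Of the 3409 bins, 1514 (44.4%) had their midpoint in an intron of the host, 739 (21.7%) in a coding exon, 379 in an untranslated exon, 362 in an exon of a gene without a coding sequence and 336 outside the gene's annotated limits. The other 79 bins were in hosts not found in the reference annotation. The medians of intronic and coding bins were close (0.655 and 0.647 RPM), while 68 intronic bins (4.49%) and 64 coding bins (8.66%) reached 10 RPM. Coding bins held 23.1% and intronic bins 20.1% of the summed RPM. Another 20.1% came from the hosts not found in the annotation, most of it from AT4G27930. By type of host, 2658 bins (78.0%) were in protein-coding genes, 524 in transcribed pseudogenes, 89 in ncRNA genes and 47 in tRNA genes. The tRNA hosts had the highest median of these types (1.05 RPM), and the pseudogenes had a median of 0.535 RPM. By Col-0 library the tRNA medians were 0.450, 1.78 and 1.01 RPM, beside 0.450, 0.823 and 0.704 RPM in protein-coding genes.

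The insertions in genes lay in a sequence context between that of promoter elements and that of genes. Their median GC content was 35.0%, against 33.0% for transposon bins in promoters and 41.0% for gene bins without an element. Intronic insertions were AT-rich (median GC 31.0%) and those in coding exons were not (42.0%). Of the 24-base words that start in a bin, a median of 79.0% were found once in the genome, against 69.0% in promoter elements and 100% in gene bins without an element. Bins made wholly of unique words were 27.1% of the insertions and held 45.8% of their summed RPM, whereas 208 bins had no unique word, so that the placement of their reads is uncertain. Both transposon bins of AT4G27930 are wholly unique, and together they held 15.1% to 25.3% of the summed RPM in the Col-0 libraries. The median of wholly unique bins was 0.604 RPM. It was 0.678 RPM where 50% to under 100% of the words were unique, and 0.701 RPM where up to 50% were. A window of 500 kb on either side was counted as element-rich where over 50% of its listed bins were transposable element genes or elements away from genes. About as many insertions lay in such windows (48.8%) as outside them, and those outside held 64.2% of the summed RPM.

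The 10 runs with the highest Col-0 mean held 46.9% of the summed RPM of all 1601. The first was AT4G27930 at chr4:13902601-13902800, which spans the elements AT4TE65595 and AT4TE65600. Its summed RPM were 3699, 2845 and 2846 in Col-0, 2350.2, 2067 and 1801 in heso1-1, 3138, 2146 and 2243 in urt1-1 and 1187, 1019 and 1339.8 in ntp4-1. All ntp4-1 and all heso1-1 libraries lay below the lowest Col-0 library, while urt1-1 overlapped Col-0. The small RNA did not stop at the element. The next bin of the host, which carries no element, had 1166, 1867 and 1749.8 RPM in Col-0, and the one after it 333, 590.1 and 549 RPM, whereas the 4 element bins before the host had at most 1.10 RPM in any Col-0 library. On the log2 scale the run differed from Col-0 by -1.40 (SE 0.28) in ntp4-1, with a limma adjusted p of 0.128. With the replicate number as a block, which pairs the ntp4-1 and Col-0 libraries by number, that p was 0.000312, and with the block and TMM scaling the difference was -0.48 with an adjusted p of 0.324.

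Among the other runs, kinase and pseudogene hosts came next. AT3G23650, a protein kinase superfamily gene with 5 bins, had 766, 1073 and 1145 RPM in Col-0 and 389.7, 771 and 862 in ntp4-1. AT2G16620, of the same superfamily, had 809, 1120.1 and 1014 RPM in Col-0 and 202, 452 and 562 in ntp4-1, where each library lay below all those of Col-0 (log2 difference -1.39, SE 0.43, limma adjusted p = 0.193, with the block 0.00259, with block and TMM 0.229). The DUF239 pseudogene AT3G43832 had 489, 927 and 863 RPM in Col-0 and 116, 342 and 466 in ntp4-1, also without overlap (log2 difference -1.47, SE 0.55, adjusted p = 0.220, with the block 0.00236, with block and TMM 0.173). In each of these the first replicate, which belongs to the first library set in both genotypes, was the lowest of its group.

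MRU1 (AT5G35490), a gene named for its rise in a methionine-overaccumulating mutant and annotated as maternally expressed, had its high values in the first library set instead. Its 3-bin run had 584, 245 and 228 RPM in Col-0, 188, 105 and 121 in heso1-1, 227, 88.2 and 189 in urt1-1 and 227, 49.6 and 63.1 in ntp4-1. The first replicate was the highest in every genotype, and every mutant library lay below the lowest Col-0 library, though by about 1 RPM in 2 of them. The log2 difference was -1.26 (SE 0.41) in heso1-1, -1.03 (SE 0.47) in urt1-1 and -1.83 (SE 0.64) in ntp4-1. None passed in limma without a block (adjusted p = 0.679, 0.529 and 0.209). With the library set as a term the limma adjusted p was 0.0788, 0.00501 and 0.00262. That term called 0.114%, 3.02% and 31.0% of all runs in heso1-1, urt1-1 and ntp4-1. The median log2 difference of all tested runs in ntp4-1 was -0.80.

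The remaining runs of the 10 had smaller differences than AT2G16620, AT3G43832 and MRU1. They were the uncharacterized gene AT3G06435, 2 runs in the serine carboxypeptidase gene AT5G22860, the lipid transfer protein pseudogene AT3G23645 and the MADS-box gene AT1G33070. Their log2 differences in ntp4-1 lay between -1.03 and -0.35, with limma adjusted p-values from 0.296 to 0.729, and their heso1-1 differences between -0.17 and 0.26. With the block and TMM the ntp4-1 differences lay between -0.11 and 0.56, on either side of 0, and that of AT3G23650 was 0.30 in place of -0.62. The AT1G33070 run, for example, had 110.1, 235 and 239 RPM in Col-0, 133, 277 and 287 in heso1-1 and 47.0, 241 and 261 in ntp4-1, and the groups overlapped.

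**Figure D1:**
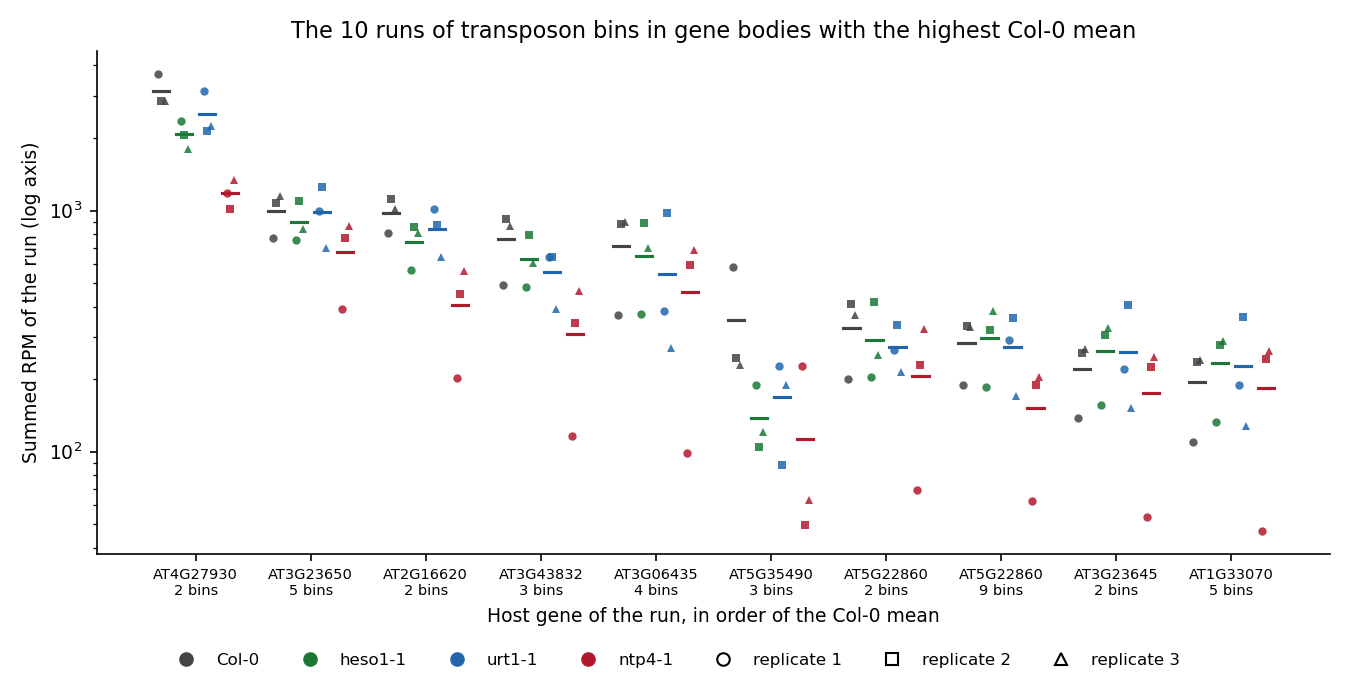
Summed RPM on a log axis of the 10 runs of transposon bins in genes with the highest Col-0 mean, 1 point per library, with genotype by colour, replicate by symbol and the mean of 3 libraries as a bar. AT4G27930 stands above all others in every genotype (2845 to 3699 RPM in Col-0), and the first replicate is the lowest ntp4-1 library in every run but AT4G27930 and MRU1.

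As a whole the insertions took a smaller share of the listed RPM in ntp4-1 than in Col-0. The shares were 2.80%, 2.79% and 2.74% in Col-0 (2.78% ± 0.0307, SD, n = 3), 2.36%, 2.72% and 2.24% in heso1-1 (2.44% ± 0.253), 2.67%, 2.68% and 2.35% in urt1-1 (2.57% ± 0.185) and 1.74%, 2.16% and 2.27% in ntp4-1 (2.06% ± 0.276). Every mutant library lay below the lowest Col-0 library, by the least in heso1-1 replicate 2. The ratio to Col-0 was 0.878 in heso1-1, 0.924 in urt1-1 and 0.740 in ntp4-1. Part of this was the single AT4G27930 run: without it the mean shares were 2.27%, 2.07%, 2.08% and 1.77%, and the mutant libraries overlapped Col-0 in heso1-1 and urt1-1 but not in ntp4-1. As a share of nuclear RPM outside miRNA bins, the means were 3.20% in Col-0, 2.86% in heso1-1, 3.06% in urt1-1 and 2.58% in ntp4-1. The chloroplast share, another part of the listed RPM, had a mean of 6.23% in Col-0, 6.42% in heso1-1, 8.17% in urt1-1 and 13.0% in ntp4-1, and the last denominator leaves it out.

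**Figure D2:**
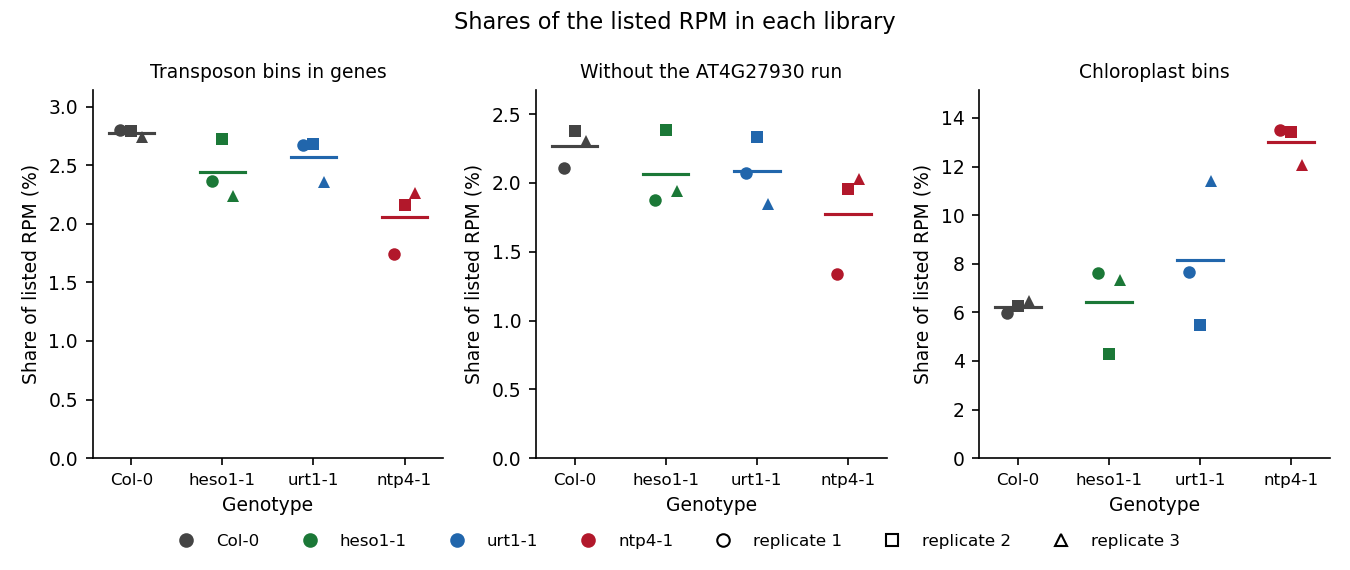
Percent of the listed RPM of each library in transposon bins of genes, in the same bins without the AT4G27930 run, and in chloroplast bins, with the mean of 3 libraries as a bar. The first share is 2.74% to 2.80% in Col-0 and 1.74% to 2.27% in ntp4-1, and the chloroplast share is 5.96% to 6.47% in Col-0 and 12.1% to 13.5% in ntp4-1.

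Across single bins the insertions in genes moved with the rest of the table in each mutant. Of the 3409 bins, 1264, 1206 and 1156 averaged 1 RPM or more over the 6 libraries of a comparison and were tested in heso1-1, urt1-1 and ntp4-1, so the counts below concern those bins and not the others. The median log2 difference on RPM as deposited was -0.25 in heso1-1, -0.40 in urt1-1 and -0.76 in ntp4-1, and the medians over all tested bins of the table were -0.23, -0.40 and -0.75. With TMM factors, which rescale the libraries to each other, the medians of the insertions became -0.04, -0.03 and -0.10, beside -0.04, -0.02 and -0.10 for all bins. The typical insertion thus shifted as the whole table did, and values below are to be read against these shifts of all bins. In ntp4-1 the medians by place were -0.74 in introns, -0.83 in coding exons, -0.80 in untranslated exons and -0.71 in noncoding exons, and by host -0.76 in protein-coding genes, -0.74 in pseudogenes, -1.02 in ncRNA genes (36 tested) and -0.08 in tRNA genes (25 tested).

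**Figure D3:**
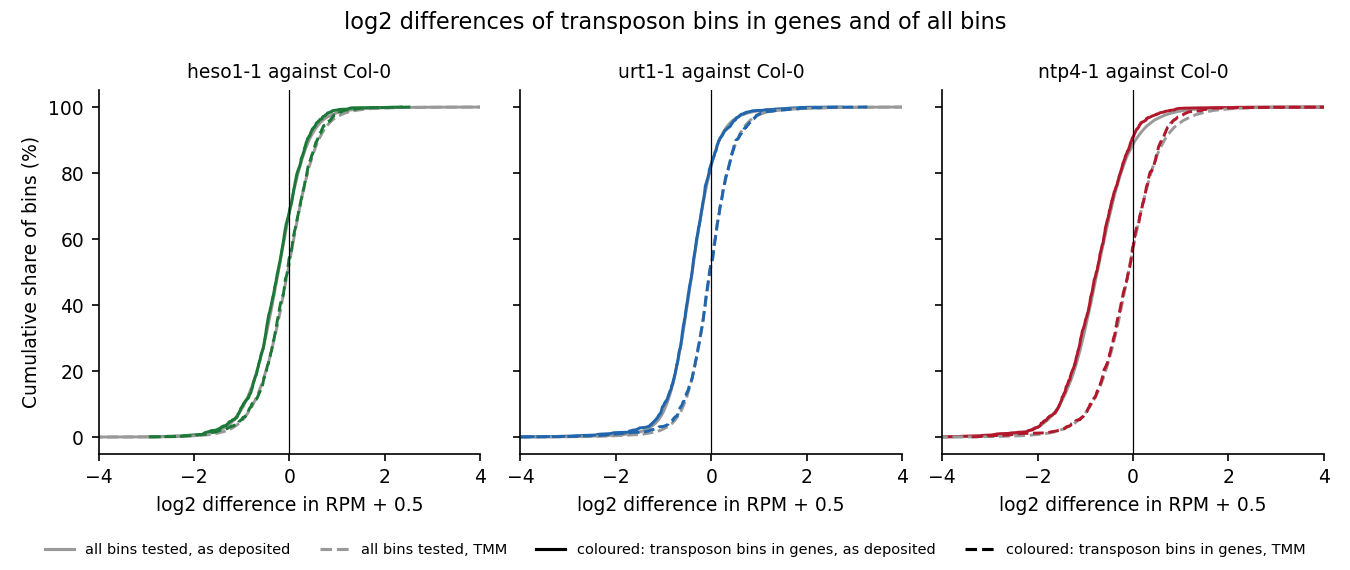
Cumulative share of tested bins by log2 difference from Col-0 in RPM + 0.5, for heso1-1, urt1-1 and ntp4-1, with transposon bins in genes in colour and all tested bins in grey, solid as deposited and dashed after TMM scaling. The coloured and grey curves run together, with medians of -0.25 and -0.23, -0.40 and -0.40, and -0.76 and -0.75 as deposited, and both move close to 0 with TMM.

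In heso1-1 no insertion passed the test. Limma called 0 of 1264 bins at an adjusted p under 0.05 (0.0527% of all bins tested were called), and edgeR on whole reads also called 0. At an unadjusted p under 0.05 there were 73 bins, with a background of 6.20%. All 3 heso1-1 libraries lay above all 3 Col-0 libraries in 8 bins (background 1.30%) and below them in 164, or 13.0% (background 12.3%). With the library set as a term 1 bin was called (background 0.0550%), the tRNA-Arg host AT5G35605. For runs limma called 0 of 855 (background 0.0798%), with 54 at an unadjusted p under 0.05 and 0 in edgeR.

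The lower bins with the smallest p-values in heso1-1 were in AT5G35605, AT5G21125, AT5G42567, AT2G13770 and AT2G19360. The AT5G35605 bin had 3.87, 13.3 and 11.2 RPM in Col-0 and 0.557, 1.52 and 1.09 in heso1-1, with no overlap (log2 difference -2.57, SE 0.51, limma adjusted p = 0.209, with the library set as a term 0.0463). AT5G42567, which encodes a small ECA1 gametogenesis related protein, had 94.5, 65.7 and 65.4 RPM in Col-0 and 27.2, 22.4 and 17.7 in heso1-1 in an untranslated exon, again with no overlap (log2 difference -1.72, SE 0.40, adjusted p = 0.396). Only 37.0% of the 24-base words of that AT5G42567 bin occur once in the genome. An intronic bin of AT2G19360, a DUF239 gene, had 2.97, 2.06 and 2.71 RPM in Col-0 and 0, 1.07 and 0 in heso1-1, without overlap (log2 difference -2.06, SE 0.57, adjusted p = 0.738). The higher bins with the smallest p-values were in AT1G28000, described with urt1-1 below, AT1G76000, the tRNA-Gly gene AT1G33370 and the GDSL-like lipase gene AT2G03980. AT1G33370 had 1.89, 3.16 and 1.91 RPM in Col-0 and 3.12, 4.56 and 13.8 in heso1-1, which overlapped (adjusted p = 0.775).

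In urt1-1 a single run passed. Limma called 0 of 1206 bins (background 0.186%) and edgeR 0, with 112 bins at an unadjusted p under 0.05 (background 6.87%). The libraries did not overlap in 8 higher bins (background 1.15%) and 204 lower bins, or 16.9% (background 14.7%). With the library set as a term, 10 bins were called higher and 47 lower, 57 in all (background 4.05%). For runs, 1 of 814 was called (background 0.317%), in AT5G21125, an uncharacterized small protein-coding gene, at chr5:7185101-7185400. Its run had 5.03, 6.31 and 6.63 RPM in Col-0, 0.669, 1.79 and 0 in heso1-1, 0, 0 and 0.130 in urt1-1 and 1.19, 1.42 and 3.11 in ntp4-1. Col-0 stood above every mutant library, and urt1-1 was at or next to 0 in all 3. The log2 difference in urt1-1 was -3.58 (SE 0.40, adjusted p = 0.00655), a size that depends on the pseudocount of 0.5. The call was lost without Col-0 replicate 2 or 3 and in edgeR. In heso1-1 the difference was -2.55 (SE 0.55) with an adjusted p of 0.283, and in ntp4-1 -1.51 (SE 0.48) with 0.198.

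AT1G28000 was among the higher bins with the smallest p-values in both uridylyltransferase mutants, though it did not pass limma's test there. Its bin in a coding exon had 2.70, 2.61 and 2.71 RPM in Col-0, 10.6, 17.1 and 21.0 in heso1-1, 16.5, 13.0 and 9.21 in urt1-1 and 2.77, 6.28 and 7.50 in ntp4-1. Every heso1-1 and urt1-1 library lay above every library of Col-0 and of ntp4-1. The log2 difference was 2.35 (SE 0.42, limma adjusted p = 0.117) in heso1-1 and 2.04 (SE 0.38, adjusted p = 0.104) in urt1-1. With the library set as a term the adjusted p was 0.0550 in heso1-1 and 0.00822 in urt1-1. Pentatricopeptide repeat proteins bind organellar RNA, and several of their genes are known sources of phased siRNAs. The other bin of the same element in that host was low in Col-0 (0, 0.137 and 0.101 RPM) and had 0.446, 1.16 and 6.52 RPM in heso1-1.

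Other urt1-1 bins with the smallest p-values were lower in tRNA hosts and higher in several others. AT1G50070 (tRNA-Leu) had 7.19, 9.47 and 3.72 RPM in Col-0 and 0, 0 and 1.30 in urt1-1 (log2 difference -3.16, SE 0.58, adjusted p = 0.105). AT5G35605 had 0.645, 1.08 and 0.519 RPM in urt1-1 (log2 difference -2.86, SE 0.50, adjusted p = 0.0792). AT4G36590, which encodes a MADS-box transcription factor, had 4.14, 4.53 and 4.12 RPM in Col-0 and 8.00, 9.20 and 7.26 in urt1-1 in a coding exon, where every urt1-1 library lay above Col-0 (log2 difference 0.86, SE 0.35, adjusted p = 0.682). Bins of low level in AT1G33785 (a pseudogene of a photosynthetic electron transfer gene), the DUF581 gene AT5G20700 and the uncharacterized gene AT5G49440 were at most 0.899 RPM in every Col-0 library and at least 1.42 RPM in every urt1-1 library, with adjusted p-values of 0.588, 0.649 and 0.682. AT1G59880 (tRNA-Pro) had 2.88, 4.39 and 2.21 RPM in Col-0 and 0, 0 and 0.778 in urt1-1, again without overlap (log2 difference -2.38, SE 0.53, adjusted p = 0.253).

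In ntp4-1 limma called 2 of 1156 bins, 1 higher and 1 lower (background 0.0756%), and edgeR called 0. At an unadjusted p under 0.05 there were 216 bins (background 18.4%). All ntp4-1 libraries lay above Col-0 in 4 bins (background 0.572%) and below in 327, or 28.3% (background 28.6%). With the replicate number as a block 4 bins were called higher (background 0.851%) and 341 lower (background 26.7%), and with the library set as a term 407 were called (background 32.9%). With the block and TMM scaling together, which takes away the shift shared by all bins, 6 were called higher (background 0.710%) and 6 lower (background 0.527%). For runs, 2 of 794 were called (background 0.145%), and they were the same 2 single-bin insertions. Both of these bins have their midpoint outside the annotated limits of the host gene.

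The bin called higher in ntp4-1 lies at AT1G76000, the start of a tRNA-Asp gene and the sequence before it. It had 0.539, 0 and 0 RPM in Col-0, 6.35, 0 and 6.52 in heso1-1, 5.03, 0 and 2.07 in urt1-1 and 20.8, 10.1 and 15.5 in ntp4-1. The ntp4-1 libraries stood above all others, and Col-0 was close to 0. The log2 difference was 4.59 (SE 0.54, limma adjusted p = 0.0177), and with the block and TMM 5.03 (adjusted p = 0.00552). The call was lost with TMM alone, with a pseudocount of 0.1, with a minimum mean of 5 RPM and in edgeR. It was also lost without Col-0 replicate 2 or 3 or ntp4-1 replicate 2 or 3.

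The bin called lower in ntp4-1 lies at the edge of AT1G64035, a serpin pseudogene, at chr1:23755401-23755500. It had 8.27, 7.55 and 7.94 RPM in Col-0, 2.01, 0.536 and 6.88 in heso1-1, 8.25, 7.57 and 6.74 in urt1-1 and 0.132, 0 and 0 in ntp4-1. The ntp4-1 libraries lay below all others, heso1-1 ranged widely, and urt1-1 lay next to Col-0. The log2 difference was -3.96 (SE 0.45, adjusted p = 0.0157), and with the block and TMM -3.38 (adjusted p = 0.0131). The call was lost with TMM alone, with a pseudocount of 0.1, in edgeR, and when any 1 library was left out, except ntp4-1 replicate 1.

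An intron of HAK5, which encodes a high-affinity potassium transporter of roots, also held a bin near 0 in ntp4-1. It had 6.56, 13.0 and 10.8 RPM in Col-0, 9.36, 16.9 and 14.1 in heso1-1, 12.8, 24.6 and 7.52 in urt1-1 and 0, 1.62 and 0 in ntp4-1. The ntp4-1 libraries lay below all other libraries. The log2 difference of -3.66 (SE 0.66) had a limma adjusted p of 0.0944, and of 0.0284 with the block and TMM. AT2G13770, a gene for a nuclease derived from a Harbinger transposase, had 26.4, 7.41 and 5.23 RPM in Col-0 and 0.132, 0.203 and 1.10 in ntp4-1 (log2 difference -3.58, SE 0.68, adjusted p = 0.0982), but none of its 24-base words occurs once in the genome (0%).

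The bins called in ntp4-1 with block and TMM are named here after their values were seen. Higher were AT1G76000, AT1G75970 (tRNA-Glu), AT1G54670 (tRNA-Ala), the alpha/beta-hydrolase gene AT1G74290, AT1G28000 and the RING/U-box gene AT2G25370. Lower were AT1G64035, AT3G26747 (tRNA-Val), HAK5, the uncharacterized gene AT2G13430, the disease resistance gene AT1G63750 and AT1G50070 (tRNA-Leu). Of the 24-base words in the bins of AT1G54670, AT1G74290, AT2G25370 and AT1G50070, 48.0%, 45.0%, 34.0% and 43.0% occur once in the genome. AT1G74290 had 6.38, 5.76 and 6.23 RPM in Col-0 and 9.88, 12.4 and 10.4 in ntp4-1, where every library lay above Col-0. AT2G13430 had 37.6, 23.1 and 24.1 RPM in Col-0 and 4.48, 5.07 and 4.57 in ntp4-1, without overlap. AT1G63750 had 12.1, 28.7 and 23.0 RPM in Col-0 and 1.45, 6.69 and 5.30 in ntp4-1, also without overlap, but no 24-base word of that bin occurs once in the genome (0%). AT1G50070 had 0, 0 and 0.548 RPM in ntp4-1, below all Col-0 libraries (log2 difference -3.42, SE 0.55, limma adjusted p = 0.0715). Among the higher bins with the smallest p-values without the block was also an intronic bin of the uncharacterized gene AT5G17165, with 0.0899, 0.686 and 0.905 RPM in Col-0 and 1.05, 1.22 and 2.19 in ntp4-1 (adjusted p = 0.358).

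**Figure D4:**
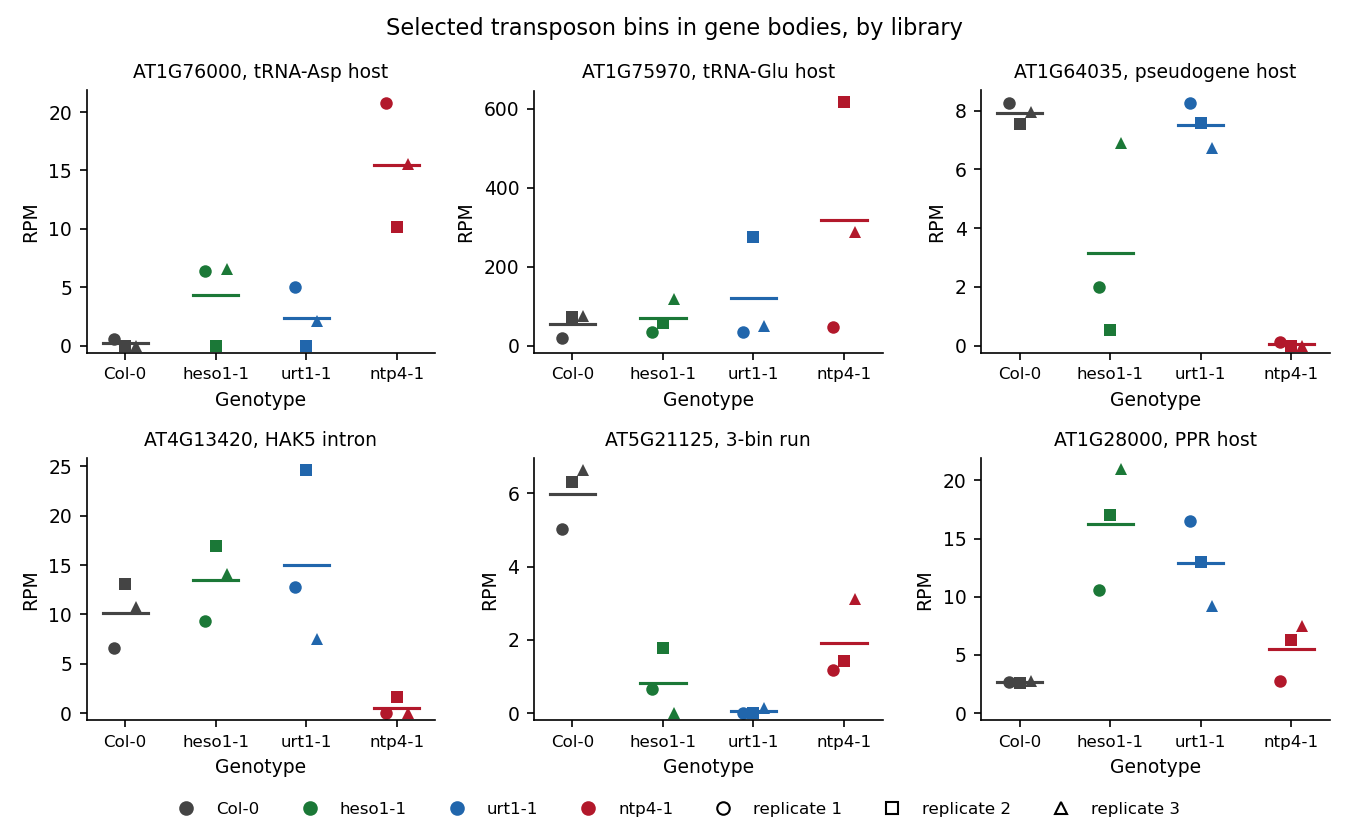
RPM per library of 5 transposon bins and 1 run in genes or at their edges, with genotype by colour, replicate by symbol and the mean of 3 libraries as a bar. AT1G76000 is at 10.1 to 20.8 RPM in ntp4-1 and at most 0.539 in Col-0, AT1G64035 and HAK5 are near 0 in ntp4-1, AT5G21125 is near 0 in urt1-1, and AT1G28000 is at 9.21 to 21.0 RPM in heso1-1 and urt1-1 and at 2.61 to 2.71 in Col-0.

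Elements at tRNA genes were few, and with the block 4 of their 25 tested bins were called higher in ntp4-1 and 8 lower, beside 0.851% and 26.7% of all bins. The 4 were all the insertions called higher with the block. There were 47 such bins at 40 tRNA genes, 19 of them tRNA-Lys genes. Their summed RPM were 342, 507 and 273 in Col-0, 489, 384 and 235 in heso1-1, 116, 505 and 436 in urt1-1 and 136, 799 and 709 in ntp4-1. Replicates 2 and 3 of ntp4-1 had the highest sums, and replicate 1 of ntp4-1 lay among the lowest. The single AT1G75970 bin gave 616 and 289 RPM of those 2 highest sums, so their rank rests on that bin and not on the tRNA hosts as a group. Sums of other libraries turned on the tRNA-Gly bins of AT1G08240 (0, 192 and 67.3 RPM in Col-0) and AT3G46585 (223, 98.0 and 0). In urt1-1 these had 0 and 0 RPM in replicate 1, and 0.130 and 301 in replicate 3. Of their 24-base words, 43.0% and 48.0% occur once in the genome. In the limma test 25 were covered in ntp4-1, of which 12 were higher and 13 lower than Col-0, and only AT1G76000 passed. The numbers were 14 and 14 of 28 in heso1-1 and 10 and 14 of 24 in urt1-1, with 0 called in each. Bins of tRNA genes without an element were about as evenly split in ntp4-1, with 127 higher and 133 lower of 260.

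The tRNA hosts differed widely from each other. AT1G75970 had 19.3, 71.4 and 73.8 RPM in Col-0, 34.0, 276 and 50.3 in urt1-1 and 46.9, 616 and 289 in ntp4-1. Its ntp4-1 value in replicate 1 lay within the Col-0 range, and the other 2 lay far above it (log2 difference 2.11, SE 0.91, limma adjusted p = 0.262, with the block 0.000254). AT3G26747 had 29.1, 27.3 and 26.7 RPM in Col-0, 10.03, 16.0 and 8.33 in heso1-1, 15.7, 11.4 and 8.56 in urt1-1 and 3.42, 4.66 and 4.39 in ntp4-1. Its Col-0 libraries lay above every mutant library, and ntp4-1 was the lowest group (log2 difference -2.61, SE 0.48, adjusted p = 0.0982, with the block 5.05e-05, with block and TMM 0.0265). AT5G37795 (tRNA-Asn) had 1.17, 0.137 and 1.21 RPM in Col-0 and 0.132, 18.8 and 12.8 in ntp4-1, where replicate 1 did not share the high values. AT4G00085 (tRNA-Lys) had 0, 4.94 and 1.51 RPM in Col-0 and 7.64, 3.85 and 2.19 in ntp4-1, with overlapping groups. AT5G35605, low in both uridylyltransferase mutants, had 1.45, 16.0 and 35.5 RPM in ntp4-1. The bins carry no strand and tRNA copies share sequence, so the gene that gave these reads is uncertain.

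Hosts grouped by the product of their gene gave no class with a call in limma without a block, nor in edgeR. Disease resistance genes were 22 hosts with 119 bins; 34 bins were tested in ntp4-1, of which 32 were lower, 0 passed, and the median difference was -0.64. Their highest bin, in AT1G63750, had 21.3 RPM in Col-0 and 4.48 in ntp4-1. Protein kinase genes, the class with the highest median level (1.77 RPM), were 28 hosts with 84 bins, of which 45 of 49 tested were lower in ntp4-1 with a median of -0.74. Transcription factor or other DNA-binding genes were 32 hosts with 99 bins (35 of 40 lower, median -0.59), and transporter genes 18 hosts with 94 bins (27 of 30 lower, median -0.58). F-box genes were 18 hosts with 40 bins (15 of 15 lower, median -0.75), and cytochrome P450 genes 12 hosts with 25 bins (9 of 9 lower, median -0.60). These counts are on RPM as deposited, and each median stands beside the -0.75 of all bins. Of all tested insertions in protein-coding hosts, 845 of 923 were lower in ntp4-1, 692 of 1013 in heso1-1 and 797 of 969 in urt1-1. Pentatricopeptide repeat genes were 3 hosts with 9 bins (2 of 3 lower, median -0.84). With the block, 14 kinase, 9 disease resistance, 9 DNA-binding, 7 transporter, 6 F-box, 1 cytochrome P450 and 1 pentatricopeptide bins were called lower, beside the 26.7% of all bins. In heso1-1 and urt1-1 the lower bins were 22 of 34 and 29 of 35 for disease resistance genes, 33 of 51 and 43 of 50 for kinases, and 25 of 43 and 27 of 43 for DNA-binding genes.

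A group of small secreted protein genes, added after the products were seen, was the largest class by hosts. It had 68 hosts with 180 bins, among them self-incompatibility S1 family, defensin-like and ECA1-related genes, many of which act in flowers. In ntp4-1 58 of 71 tested bins were lower, beside 845 of 923 in all protein-coding hosts, with a median of -0.58, and 0 passed. With the block 17 were called lower, beside the 26.7% of all bins. Its highest bin, in the S1 family gene AT5G06020, had mean values of 81.9 RPM in Col-0, 67.4 in heso1-1, 87.8 in urt1-1 and 62.6 in ntp4-1.

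A few hosts carried many transposon bins, though not always many elements. In 486 hosts there was 1 bin and in 44 hosts at least 10, with a median of 2. Introns of the pseudogene AT5G32690 held 102 bins from 15 elements, which summed to 60.8 ± 4.48 RPM in Col-0, 52.6 ± 8.07 in heso1-1, 45.0 ± 3.43 in urt1-1 and 26.9 ± 13.6 in ntp4-1 (SD, n = 3). AT4G04250, also a pseudogene, lay under a single element over 25 bins with 112 ± 5.61 RPM in Col-0, 76.0 ± 9.43 in heso1-1, 68.2 ± 6.99 in urt1-1 and 56.8 ± 14.7 in ntp4-1. GSL9 (AT5G36870), a callose synthase family gene, had 22 intronic bins with 35.8 ± 4.93 RPM in Col-0, 17.3 ± 6.88 in heso1-1, 18.4 ± 2.27 in urt1-1 and 15.9 ± 6.87 in ntp4-1. The defensin-like gene AT5G55565 had 26 intronic bins with 40.0 ± 7.45 RPM in Col-0 and 25.8 ± 11.2 in ntp4-1. No sum over a host was tested.

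Of 7 genes known as hosts of silenced or intronic repeats, 4 held a member bin. They were AT1G58602, RPP4 (AT4G16860), AT1G11270 and QQS (AT3G30720), and none was listed for IBM1, AT3G05410 or FWA. RPP7, the name by which AT1G58602 is known, encodes a receptor against downy mildew, and the silencing of an element in its intron is known to set where its transcript ends. It carried 39 bins from 11 elements, 37 of them intronic, which summed to 29.1, 44.1 and 35.5 RPM in Col-0, 20.5, 32.5 and 25.7 in heso1-1, 22.4, 27.1 and 16.1 in urt1-1 and 8.56, 21.5 and 22.3 in ntp4-1. The sums of ntp4-1 and urt1-1 lay below all those of Col-0, and heso1-1 overlapped Col-0. The values were uneven along the gene: 6 bins had a Col-0 mean of at least 1 RPM, and the 4 highest held 54.4% of the sum.

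The highest RPP7 bin, whose sequence is given above, started 12047 bp from the gene's start, within an intron. It had 13.8, 14.7 and 12.3 RPM in Col-0, 8.80, 9.74 and 5.43 in heso1-1, 9.16, 7.85 and 6.61 in urt1-1 and 3.95, 3.44 and 5.67 in ntp4-1. All mutant libraries lay below Col-0, and ntp4-1 lay lowest in mean. The log2 difference in ntp4-1 was -1.56 (SE 0.49, limma adjusted p = 0.189), with the block 0.00781 and with block and TMM -0.71 (adjusted p = 0.252). Mean values were lower than in Col-0 at 30 of the 39 bins in ntp4-1, 27 in heso1-1 and 32 in urt1-1, on RPM as deposited. Of all tested insertions in protein-coding hosts, 845 of 923, 692 of 1013 and 797 of 969 were lower, in the same order. Only 6 of the 39 bins had a Col-0 mean of at least 1 RPM.

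**Figure D5:**
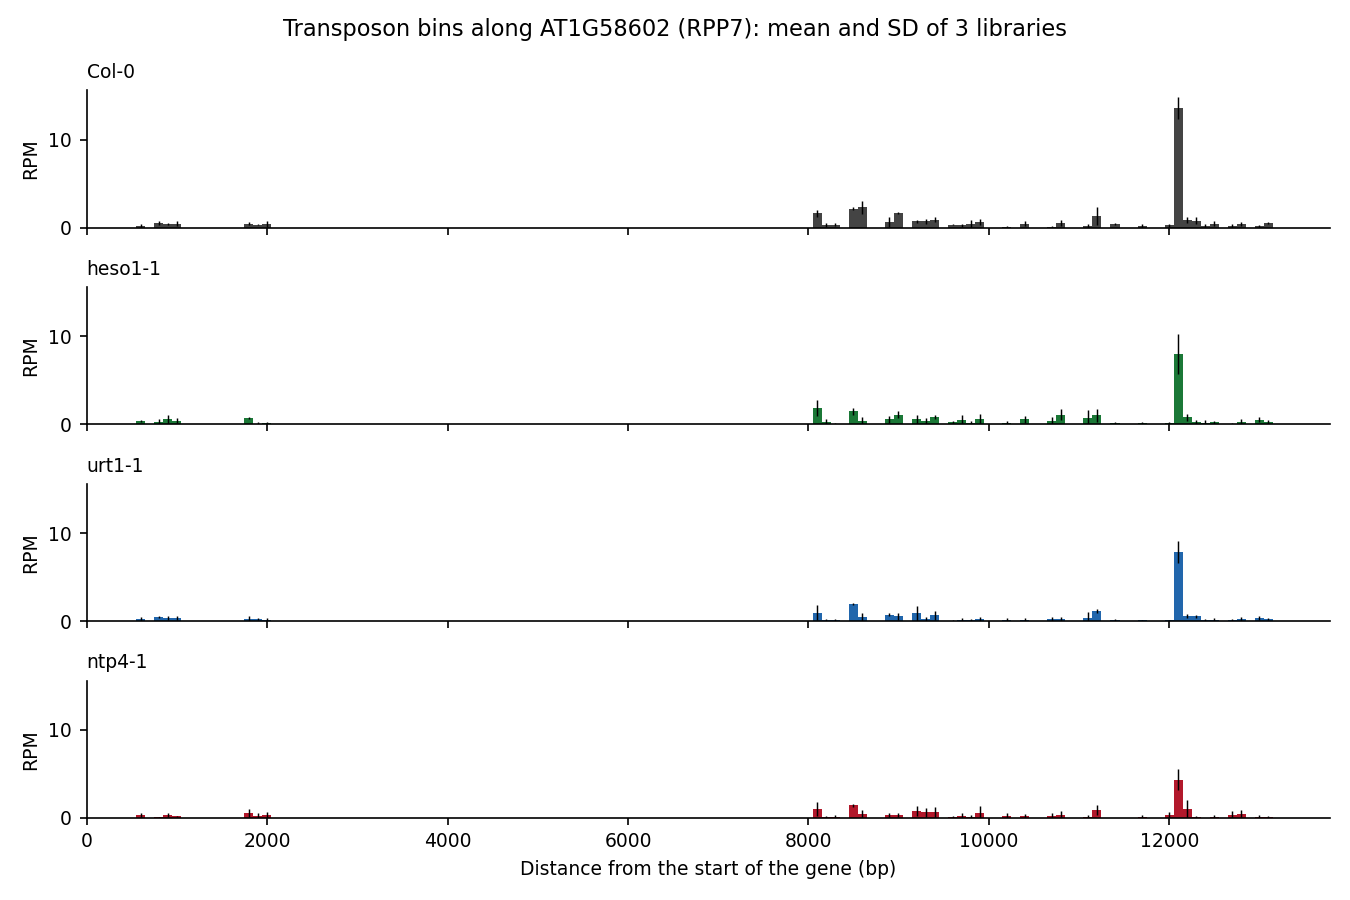
Mean RPM, with SD, of 3 libraries in the 39 transposon bins along AT1G58602 (RPP7), by distance of the bin from the start of the gene in bp, in a panel per genotype. The bin at 12047 bp is the peak in all genotypes, with 13.6 RPM in Col-0, 7.99 in heso1-1, 7.87 in urt1-1 and 4.35 in ntp4-1.

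The other known hosts gave less small RNA. AT1G11270, an F-box gene with an element in its intron, had 8.90, 22.5 and 19.1 RPM over 2 bins in Col-0, 10.1, 9.02 and 0 in heso1-1, 15.5, 6.76 and 11.7 in urt1-1 and 0, 3.04 and 4.75 in ntp4-1. The ntp4-1 libraries lay below all Col-0 libraries (log2 difference of the main bin -2.92, SE 0.85, limma adjusted p = 0.174, with the block 2.29e-05, with block and TMM 0.0706), but no 24-base word of that bin occurs once in the genome (0%). QQS, an orphan gene whose expression varies with its DNA methylation, had 2.02 ± 0.209 RPM over 4 bins in Col-0 and 1.77 ± 1.07 in ntp4-1, and RPP4 had 1.30 ± 0.180 RPM over 3 bins in Col-0 and 0.984 ± 0.952 in ntp4-1. Among 41 genes of the silencing machinery, 0 held a member bin.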

How the data were processed

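The deposited table gives RPM values for 100 bp bins, which per the labels and the column headers were made by the authors, 1 column per library. The aligner, the genome build, the handling of reads with several matches and the way bins were selected are each not given in the sources used here. In 11 of the 12 columns 100% of the values were whole multiples of 1 read (tolerance 1e-06), which gave the totals quoted. The third Col-0 column did not pass the same test, so the edgeR runs left it out. No column was left unused (0).

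Gene identifiers in the bins lay on the same gene of TAIR10.1 (RefSeq) in 99.5% of listings, and 1091 of 1128 host identifiers were found there. Place, GC content and 24-base uniqueness came from that assembly. Bins hold no strand, so reads of genes that overlap, in sense or antisense, cannot be assigned to either.

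Each mutant was compared with Col-0 by limma 3.58.1 in R 4.3.3 on log2(RPM + 0.5), over the 6 libraries of the comparison and all bins with a mean of at least 1 RPM, two-sided, with Benjamini-Hochberg adjustment over all bins tested and a threshold of 0.05. Runs were tested the same way. The scripts were tested on simulated data. The members, lists and tests were chosen with earlier results of these data known. Named bins were those called in a comparison, the 5 smallest p-values in a direction with fewer than 5 calls, the 10 runs with the highest Col-0 mean, and a list of known hosts.

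The replicate numbers met the pairing criterion (every pair above 0.1) for heso1-1 and ntp4-1 with Col-0: the deviations of same-numbered libraries from their group means correlated at 0.57, 0.25 and 0.19 in heso1-1 and at 0.65, 0.38 and 0.32 in ntp4-1. Between numbers 2 and 3 the correlations were as high (0.25 and 0.22 in heso1-1, 0.38 and 0.34 in ntp4-1), so what the check separates is replicate 1 from the others, as the library sets do. In urt1-1 they did not (0.39, 0.45 and -0.28). Alternatives were other pseudocounts and filters, TMM scaling, the replicate block, leaving out each library, edgeR 4.0.16 on whole reads, the library set as a term or each set alone, and the block with TMM. edgeR called 9, 3 and 0 bins of the whole table in heso1-1, urt1-1 and ntp4-1. Reads carry no molecular identifiers, so counting intervals are not given.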

Additional observations from a re-analysis of the deposited data

How the results depend on the processing

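No count, median or share below, and no called difference, changed direction under an alternative run, but of 132 named differences, most of them not called, 23 changed sign with TMM, 23 with the block and TMM, and 11 of 131 without Col-0 replicate 1, the most for any 1 library left out. The library set as a term, each set alone and the block with TMM were chosen after seeing the data. In heso1-1 (0 bins and 0 runs called) the library set as a term gave 1 bin (background 0.0550%) and 3 runs (background 0.114%). Leaving out 1 library gave 0 to 1 bins and 0 to 1 runs (1 without Col-0 replicate 1, and for runs also without heso1-1 replicate 1). In urt1-1 (0 bins, 1 run) no filter gave 4 bins, TMM 3 bins and 3 runs, the library set as a term 57 bins and 35 runs, the second set alone, with 1 urt1-1 library assumed to vary like Col-0, 60 bins and 22 runs, and the block with TMM 2 bins and 2 runs. There a minimum mean of 5 RPM and edgeR each left 0 runs, and so did the first set alone, which holds 1 Col-0 library, called 0 runs of the whole table and says nothing of stability. Leaving out 1 library gave 0 to 4 bins and 0 to 4 runs, with 4 of each without urt1-1 replicate 2 and 0 runs without Col-0 replicate 2 or 3. In ntp4-1 (2 bins, 2 runs) a pseudocount of 0.1, a minimum of 5 RPM and edgeR each left 0 bins and 0 runs, TMM 0 bins and 1 run, and no filter 5 bins. The library set as a term gave 407 bins, or 35.2% (background 32.9%), and 265 runs, or 33.4% (background 31.0%). The second set alone gave 225 bins, or 17.5% (background 17.7%), and 131 runs, or 15.5% (background 16.1%). The block with TMM gave 12 bins, or 1.04% (background 1.24%), and 5 runs, or 0.63% (background 0.62%). Leaving out 1 library gave 0 to 81 bins and 0 to 41 runs. The highest counts came without ntp4-1 replicate 1, bins fell to 0 without replicate 2 or 3 of Col-0 or of ntp4-1, and runs fell to 0 without any other library. The cause was not tested.

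With the replicate block, which pairs libraries by number, ntp4-1 had 345 bins, or 29.8% (background 27.5%), and 198 runs, or 24.9% (background 23.4%), called. The block called 0 bins and 0 runs in heso1-1. In urt1-1, whose libraries share only a number, it gave 10 bins (background 0.566%) and 6 runs (background 0.592%). Of the values of named bins and runs, 106 kept their side of the threshold with the block and 26 passed that had not.

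The share of the insertions relative to Col-0 was 0.796 in heso1-1, 0.789 in urt1-1 and 0.545 in ntp4-1 when taken as RPM of the whole library. Without 1 library it stayed at 0.827 to 0.915 in heso1-1, 0.904 to 0.962 in urt1-1 and 0.702 to 0.796 in ntp4-1. The median log2 differences ranged from -0.45 to -0.04, -0.62 to -0.20 and -1.02 to -0.34 over the same leave-outs. For low bins the pseudocount sets the size of a difference, and the depth of heso1-1 replicate 3 limits what its libraries can show.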
